A study of Mus musculus with 8 samples.

Results

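The 8 voltage-gated calcium channel alpha-1 subunit genes examined here were Cacna1a, Cacna1b, Cacna1c, Cacna1d, Cacna1e, Cacna1g, Cacna1h and Cacna1i, taken by symbol from the 19201 genes measured in the hippocampus of wild-type and Mbd2-/- mice. All 8 were above the minimum for testing, a mean normalized count of 10, which 14504 genes passed. The wild-type animals, labelled Control, were C57BL/6 mice, and the Mbd2-/- animals carried the null allele on the same background. Mbd2 encodes a protein that binds methylated DNA. Mice were 10 to 12 weeks old littermates of heterozygous parents, and males and females were grouped. Each genotype had 4 RNA-seq libraries, and each library held the pooled hippocampi of 2 mice, so the spread between libraries is a spread between pools. The null allele was constitutive and left exon 1 of Mbd2 in place. Total RNA was depleted of ribosomal RNA and sequenced as paired ends of 100 bases. The question was how loss of Mbd2 altered the level of each transcript.

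An alpha-1 subunit is the pore of a voltage-gated calcium channel. It opens on depolarization and lets calcium into the cell. For pores of the L, N, P/Q and R types, auxiliary alpha-2-delta and beta subunits bring the pore to the membrane and tune its gating. P/Q-type (Cacna1a) and N-type (Cacna1b) channels sit at presynaptic terminals and trigger transmitter release. L-type channels (Cacna1c, Cacna1d) lie largely on cell bodies and dendrites and signal to the nucleus, R-type channels (Cacna1e) are found in dendrites, spines and some terminals, and T-type channels (Cacna1g, Cacna1h, Cacna1i) open near the resting potential and drive burst firing. The L-, N-, P/Q- and R-type channels generally need a stronger depolarization to open than the T-type channels.

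The coding sequences hold this division at the selectivity filter, the ring of acidic residues that makes the pore prefer calcium. The stretch around the filter residue of repeat IV is shown for all 8 subunits because it separates the T-type genes from the rest. Sequences were read 5′ to 3′ from the coding transcripts of GENCODE vM1, the codons lay at positions 1426 to 1819 of the reading frames, and capitals mark the filter codon.
Cacna1a: agcgccacaggaGAAgcgtggcacaac
Cacna1b: agtgccactgggGAGgcctggcatgag
Cacna1c: tgtgccaccggaGAGgcctggcaggac
Cacna1d: tgtgcaacagggGAAgcctggcaggag
Cacna1e: agtgccacggggGAGgcttggcaggag
Cacna1g: gtctccactggtGACaactggaatggt
Cacna1h: gtgtccactgggGACaactggaatggg
Cacna1i: gtctccacaggcGATaactggaatggg
The codon is one for glutamate in Cacna1a, Cacna1b, Cacna1c, Cacna1d and Cacna1e, and one for aspartate in Cacna1g, Cacna1h and Cacna1i. At the nucleotide level the genes were distinct enough for reads to be told apart almost everywhere. Only 2 of the 28 pairs of members shared any stretch of 50 bases, Cacna1g with Cacna1i at 19 such stretches and Cacna1h with Cacna1i at 1.

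Positions are given on mm9, the build of the deposited data, from GENCODE vM1. Cacna1a covered chr8:86912339-87164145 on the plus strand and Cacna1b chr2:24459407-24618672 on the minus strand. Cacna1c, which spans the most genomic sequence of the members, covered chr6:118542314-119146249 and Cacna1d chr14:30853135-31304342, both on the minus strand. Cacna1e covered chr1:156239649-156573049 on the minus strand. Of the T-type genes, Cacna1g covered chr11:94269705-94335414 and Cacna1h chr17:25511230-25570728 on the minus strand, and Cacna1i covered chr15:80117668-80228709 on the plus strand. Exons of 3 members overlapped those of a gene on the opposite strand. Cacna1a overlapped Gm16183, which was not among the measured genes. Cacna1d overlapped Chdh, with a normalized count of 129 ± 7.56 in wild-type and 129 ± 8.42 in Mbd2-/- libraries (mean ± SD, n = 4 each), and Cacna1h overlapped Tpsg1, with means of 1.74 and 0.627. Whether strand was used in counting is not given in the sources used here, so reads in these overlaps cannot be assigned to either gene with certainty.

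A 5′ flank could be printed for members listed in the RefSeq promoter table of build GRCm38.p6, which held Cacna1b, Cacna1c, Cacna1d, Cacna1e and Cacna1i. The flanks of Cacna1b and Cacna1c, whose transcripts were both lower in Mbd2-/- libraries, and of Cacna1i, whose transcript was not called different, are shown because Mbd2 binds methylated CpG sites. The paper reports hippocampal Mbd2 binding at unmethylated CpGs as well. Each is the 250 bases before the start site, 5′ to 3′ on the strand of the gene, with every CG in capitals. They lie at chr2:24763153-24763402 (Cacna1b, minus strand), chr6:119108496-119108745 (Cacna1c, minus strand) and chr15:80286988-80287237 (Cacna1i, plus strand).
Cacna1b: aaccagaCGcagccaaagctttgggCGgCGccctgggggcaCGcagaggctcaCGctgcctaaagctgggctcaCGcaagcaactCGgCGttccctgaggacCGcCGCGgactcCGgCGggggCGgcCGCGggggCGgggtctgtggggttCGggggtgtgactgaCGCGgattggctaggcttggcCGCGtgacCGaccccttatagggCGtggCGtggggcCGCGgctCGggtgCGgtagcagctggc
Cacna1c: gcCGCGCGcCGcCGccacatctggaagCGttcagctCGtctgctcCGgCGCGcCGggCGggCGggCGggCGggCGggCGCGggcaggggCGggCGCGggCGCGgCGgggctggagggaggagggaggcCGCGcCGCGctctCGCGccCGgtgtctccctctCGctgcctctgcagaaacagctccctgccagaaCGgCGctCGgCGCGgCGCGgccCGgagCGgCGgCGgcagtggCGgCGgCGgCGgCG
Cacna1i: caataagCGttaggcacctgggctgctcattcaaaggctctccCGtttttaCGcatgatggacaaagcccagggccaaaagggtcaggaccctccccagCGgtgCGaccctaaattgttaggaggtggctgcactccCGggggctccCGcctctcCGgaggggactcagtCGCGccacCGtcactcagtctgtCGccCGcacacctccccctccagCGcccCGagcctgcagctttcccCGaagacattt
The Cacna1b flank held 29 CG dinucleotides, a number reached by 6.78% of the 32851 listed promoters. The Cacna1c flank, printed for its listed start with the most CG, held 48, reached by 0.186%. The Cacna1i flank held 16, reached by 25.4%. The median promoter held 6. Other listed starts of Cacna1c held 5 and 2. The starts of Cacna1d, which was not called different, held 50 and 2, and that of Cacna1e, which was called lower, held 6. CG-rich and CG-poor flanks thus occurred both among members called lower and among members not called. These counts describe the sequence, and methylation of the flanks was not analysed here.

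Mbd2 itself, the targeted gene, had normalized counts of 295, 363, 371 and 354 in wild-type libraries 1 to 4 and of 244, 240, 339 and 217 in Mbd2-/- libraries 1 to 4. The groups overlapped through the third Mbd2-/- library, which lay above the first wild-type library. Mbd2 was lower by 0.43 on the log2 scale (log2 fold change -0.43, SE 0.12, adjusted p = 0.0174 by limma with Benjamini-Hochberg adjustment). That call was lost without wild-type library 3, Mbd2-/- library 1 or Mbd2-/- library 2, with adjusted p up to 0.0624 by limma, and without trend and robust moderation (adjusted p = 0.0731 by limma). Since exon 1 was intact, reads on the gene remained in Mbd2-/- libraries. The libraries held 8439570 to 23790825 reads on genes in wild-type and 8087750 to 14020765 in Mbd2-/- mice. Markers of the dentate gyrus, CA1 and CA3 were present, with wild-type normalized counts of 1641 ± 37.9 for Prox1, 1595 ± 37.9 for Wfs1 and 734 ± 12.6 for Grik4 (n = 4 each).

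All 8 alpha-1 subunits had a lower fitted mean in Mbd2-/- than in wild-type libraries, and the test called 5 of them lower: Cacna1g of the T type, Cacna1b of the N type, Cacna1c of the L type, Cacna1e of the R type and Cacna1a of the P/Q type. None was called higher by limma, edgeR, DESeq2 or voom, and 0 were higher (7 lower) at an unadjusted p under 0.05 by limma. At this threshold, an adjusted p under 0.05 by limma, 10.0% of the genes tested were called lower and 12.0% higher. The median log2 fold change of the 8 members was -0.22, with a range from -0.46 to -0.07. The genotypes did not overlap for 4 members (Cacna1a, Cacna1b, Cacna1c and Cacna1g), against a background of 11.5% of tested genes with every Mbd2-/- library below every wild-type library. Tissue was measured in bulk, so fewer cells of a type and less RNA per cell cannot be told apart for any of these differences. Transcript length moved with the result and is treated after the single genes.

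**Figure D1:**
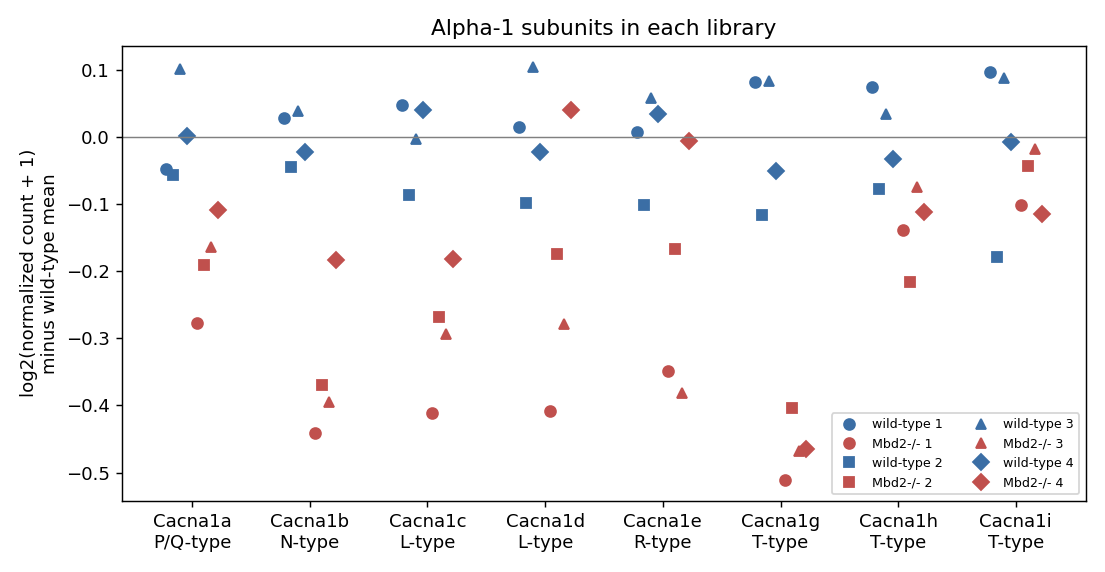
Log2(normalized count + 1) of each alpha-1 subunit (columns, with channel type) minus its wild-type mean, with 1 point per library (blue for wild-type, red for Mbd2-/-, and a marker shape for each library number). The Mbd2-/- points of Cacna1a, Cacna1b, Cacna1c and Cacna1g all lie below the wild-type points, and for Cacna1d and Cacna1e the fourth Mbd2-/- library lies among the wild-type libraries.

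Cacna1a forms P/Q-type channels, the main calcium source for release at many central synapses. Its normalized counts were 2490, 2474, 2759 and 2574 in wild-type libraries 1 to 4 and 2122, 2252, 2297 and 2385 in Mbd2-/- libraries 1 to 4. The highest Mbd2-/- library stayed below the lowest wild-type library. The log2 fold change was -0.18 (SE 0.05, 95% interval -0.30 to -0.07, a change of -12.0%), with an adjusted p of 0.0224 by limma and a p of 0.0286 in the exact two-sided permutation test over libraries, the smallest that 4 against 4 allows. It was the smallest of the differences called. The call was lost when any 1 of wild-type libraries 3 and 4 or Mbd2-/- libraries 1 and 2 was left out, with adjusted p up to 0.0914 by limma.

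Cacna1b forms N-type channels, the other main presynaptic channel. Its normalized counts were 1896, 1803, 1909.8 and 1831 in wild-type libraries 1 to 4 and 1369, 1439, 1414 and 1637 in Mbd2-/- libraries 1 to 4. The wild-type values lay within a narrow band, and the fourth Mbd2-/- library was the nearest to it without reaching it. The log2 fold change was -0.35 (SE 0.06, 95% interval -0.47 to -0.22, a change of -21.4%; adjusted p = 0.000861 by limma, exact permutation p = 0.0286). Of the presynaptic pair, Cacna1b thus had the larger fold change, though the difference between the fold changes of Cacna1a and Cacna1b was not tested.

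Cacna1c encodes Cav1.2, the predominant L-type pore of the brain and a gene associated with psychiatric disorders. Its normalized counts were 2235, 2037, 2159 and 2225 in wild-type libraries 1 to 4 and 1626, 1796, 1764 and 1907 in Mbd2-/- libraries 1 to 4. The groups did not overlap. The log2 fold change was -0.29 (SE 0.06, 95% interval -0.41 to -0.17, a change of -18.1%; adjusted p = 0.00246 by limma, exact permutation p = 0.0286).

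Cacna1d encodes Cav1.3, the L-type pore that opens at more negative potentials. Its normalized counts were 694, 641, 738 and 676 in wild-type libraries 1 to 4 and 517, 608, 566 and 706 in Mbd2-/- libraries 1 to 4. The first 3 Mbd2-/- libraries lay below all wild-type libraries and the fourth lay above 3 of them. The log2 fold change of -0.20 (SE 0.08, 95% interval -0.38 to -0.03) did not pass the test (adjusted p = 0.0865 by limma, exact permutation p = 0.114). Without the fourth Mbd2-/- library it was -0.29, with an adjusted p of 0.00117 by limma.

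Cacna1e forms R-type channels, and its transcript was the most abundant of the family. Its normalized counts were 6361, 5899, 6589.9 and 6481 in wild-type libraries 1 to 4 and 4969, 5639.7, 4858 and 6304 in Mbd2-/- libraries 1 to 4. Again the fourth Mbd2-/- library lay inside the wild-type range and the other 3 below it. The log2 fold change was -0.23 (SE 0.07, 95% interval -0.37 to -0.08, a change of -14.5%; adjusted p = 0.0319 by limma, exact permutation p = 0.0571). This call held in only 2 of the 8 fits that each left out 1 library, and the adjusted p reached 0.112 by limma.

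Cacna1g, which encodes Cav3.1, differed most. Its normalized counts were 1016, 885, 1017 and 926 in wild-type libraries 1 to 4 and 673, 725, 693 and 695 in Mbd2-/- libraries 1 to 4. The 4 Mbd2-/- libraries lay close together and far below the wild-type range, the fourth library included. The log2 fold change was -0.46 (SE 0.06, 95% interval -0.59 to -0.33, a change of -27.4%; adjusted p = 0.000164 by limma, exact permutation p = 0.0286).

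The other T-type genes did not pass the test. Cacna1h, which encodes Cav3.2, had normalized counts of 2037, 1832, 1980.0 and 1889.8 in wild-type libraries 1 to 4 and 1756, 1663, 1836 and 1788 in Mbd2-/- libraries 1 to 4. Its groups overlapped by a single wild-type library, the second (log2 fold change -0.14, SE 0.05, 95% interval -0.25 to -0.02, adjusted p = 0.0798 by limma, exact permutation p = 0.0571). Without the fourth Mbd2-/- library the log2 fold change of Cacna1h was again -0.14, with an adjusted p of 0.0258 by limma. Cacna1i, which encodes Cav3.3, had normalized counts of 1472, 1216, 1462 and 1369 in wild-type libraries 1 to 4 and 1282, 1335, 1359.6 and 1271 in Mbd2-/- libraries 1 to 4. All Mbd2-/- values of Cacna1i lay inside the wild-type range (log2 fold change -0.07, SE 0.06, 95% interval -0.20 to 0.06, adjusted p = 0.462 by limma, exact permutation p = 0.343). The intervals of Cacna1g and Cacna1i did not overlap, but the difference between them was not tested.

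The Mbd2-/- libraries were not all equally far from wild-type. Averaged over the 8 subunits, the difference from the wild-type mean was -0.33, -0.23, -0.26 and -0.14 on the log2 scale in Mbd2-/- libraries 1 to 4. The fourth library was thus the nearest to wild-type on average. It was the nearest for Cacna1a, Cacna1b, Cacna1c, Cacna1d and Cacna1e, and for none of the T-type genes. This library set the overlap in Cacna1d, at 0.04 above the wild-type mean, and in Cacna1e, at -0.01. Among the T-type genes the differences in libraries 1 to 4 were -0.51, -0.40, -0.47 and -0.46 for Cacna1g. They were -0.14, -0.22, -0.07 and -0.11 for Cacna1h, with the third library nearest. They were -0.10, -0.04, -0.02 and -0.11 for Cacna1i, with the fourth library farthest. Leaving out the fourth Mbd2-/- library brought the number of members called lower to 7, while leaving out wild-type library 3, wild-type library 4, Mbd2-/- library 1 or Mbd2-/- library 2 each brought it to 3 (Cacna1b, Cacna1c and Cacna1g) by limma. The share of all tested genes called lower moved as well, to 17.7% without the fourth Mbd2-/- library and to between 6.07% and 6.47% in the fits that gave 3 members.

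**Figure D2:**
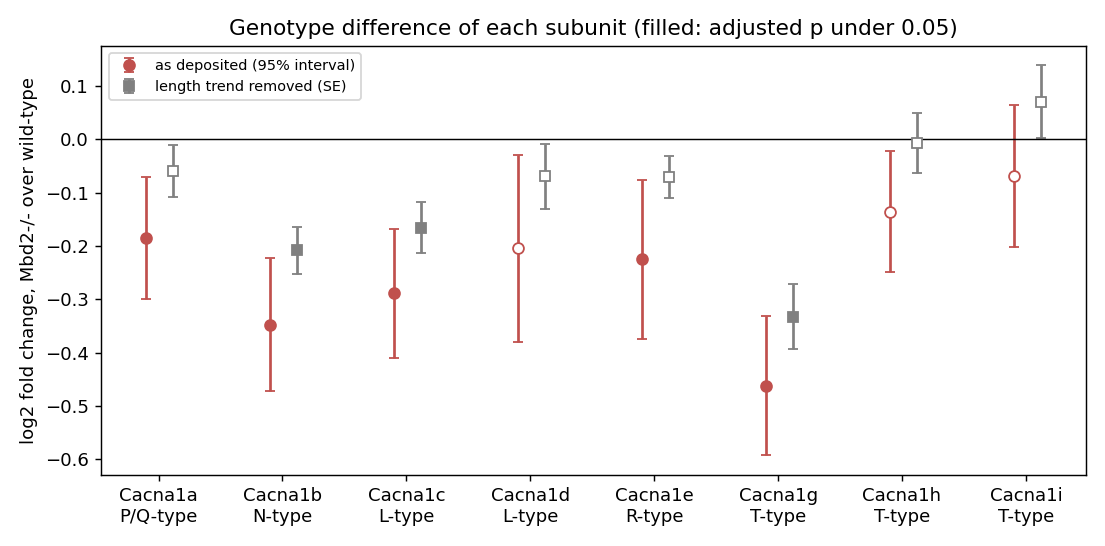
Log2 fold change of each alpha-1 subunit in Mbd2-/- over wild-type libraries, as fitted to the deposited values (circles with 95% intervals) and after the trend with transcript length was removed from each library (squares with SE); filled symbols passed an adjusted p of 0.05. All circles lie below 0, and only Cacna1b, Cacna1c and Cacna1g are filled in both fits.

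Transcript length moved with these differences and the members are long genes. Their longest annotated transcripts, from 7577 bases in Cacna1c to 12696 in Cacna1e, lay at percentiles 94.3 to 99.3 of the tested genes. Of the 809 tested genes at least as long as the shortest member, 244 (30.2%) were called lower and 14 higher, with a median log2 fold change of -0.15. Of the 13377 shorter genes, 8.83% were called lower and 1703 were called higher, with a median of 0.01. The share of members called lower should be read against the share of long genes. The median difference of those 809 genes from the wild-type mean was -0.22, -0.15, -0.24 and 0.03 in Mbd2-/- libraries 1 to 4, so the library in which the subunits were on average nearest to wild-type was also the one in which long genes were not lower.

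Once the trend with length had been taken out of every library, 3 members were called lower and none higher, where 6.77% of the 14186 genes with a length were called lower and 8.05% higher. Cacna1g had a log2 fold change of -0.33 (SE 0.06, adjusted p = 0.00122 by limma). Cacna1b had a log2 fold change of -0.21 (SE 0.04, adjusted p = 0.00356 by limma) and Cacna1c one of -0.17 (SE 0.05, adjusted p = 0.0247 by limma). These differences were smaller than before in all 3 genes but remained called. Cacna1a at -0.06, Cacna1d at -0.07, Cacna1e at -0.07 and Cacna1h at -0.01 were not called, with adjusted p from 0.256 to 0.953 by limma. Cacna1i turned to 0.07 (adjusted p = 0.531 by limma). The median over the 8 members was -0.07. The part of length in the differences as deposited was not tested otherwise.

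**Figure D3:**
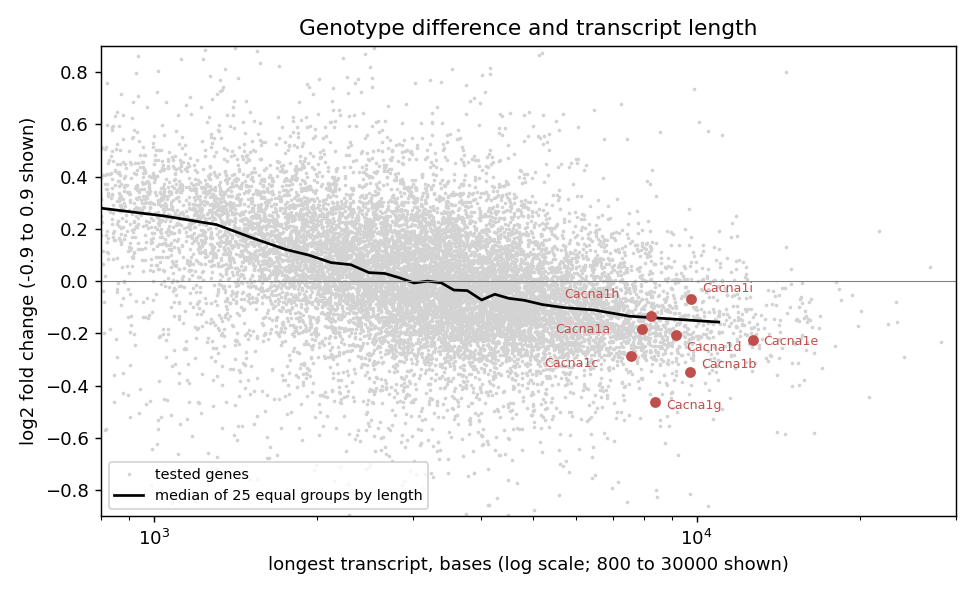
Log2 fold change in Mbd2-/- over wild-type libraries against the longest transcript in bases (log scale) for all tested genes (grey points) and the 8 alpha-1 subunits (red), with the median of genes grouped by length (black line). The median falls with length, and Cacna1b, Cacna1c and Cacna1g lie farthest below it.

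Levels were compared between genes as RPKM, the recovered reads of a gene scaled to its annotated exon length and to the reads on genes of the library. Cacna1e was the highest in wild-type libraries at 39.5 ± 1.70 RPKM (SD, n = 4). Cacna1c followed at 19.4 ± 0.743 RPKM and Cacna1a at 17.9 ± 0.847 RPKM, with overlapping libraries. Cacna1h at 15.7 ± 0.677 RPKM and Cacna1b at 14.8 ± 0.344 RPKM also overlapped. Below them came Cacna1i at 11.1 ± 0.901 RPKM, Cacna1g at 7.58 ± 0.491 RPKM and Cacna1d at 5.82 ± 0.317 RPKM, each without overlap with its neighbours. The member with the largest fold change was therefore among the least abundant. With the longest transcript in place of all exons, Cacna1a (25.7 RPKM) ranked above Cacna1c (22.6 RPKM) and the order of the others was kept.

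In Mbd2-/- libraries the levels were 33.6 ± 4.18 RPKM for Cacna1e, 15.8 ± 0.974 RPKM for Cacna1c, 15.5 ± 0.684 RPKM for Cacna1a and 14.1 ± 0.581 RPKM for Cacna1h. They were 11.6 ± 0.944 RPKM for Cacna1b, 10.4 ± 0.247 RPKM for Cacna1i, 5.44 ± 0.138 RPKM for Cacna1g and 5.03 ± 0.670 RPKM for Cacna1d. The order by mean was that of wild-type libraries. Summed over the family, the level was 131.8 ± 5.09 RPKM in wild-type (124.6 to 136.3) and 111.5 ± 7.03 RPKM in Mbd2-/- libraries (105.8 to 121.3), which did not overlap.

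The makeup of the family by channel type differed little. The R type made up 30.0% ± 0.451 of the summed level in wild-type libraries (SD, n = 4) and 30.1% ± 1.95 in those from Mbd2-/- mice (SD, n = 4). The T type made up 26.0% ± 0.741 and 27.0% ± 1.81, the L type 19.2% ± 0.312 and 18.6% ± 0.425, and the P/Q type 13.6% ± 0.510 and 14.0% ± 0.439. The N type made up 11.3% ± 0.258 in wild-type (11.0 to 11.6) and 10.4% ± 0.239 in Mbd2-/- libraries (10.1 to 10.7). Its ranges were the only ones that did not overlap. The shares sum to a whole within a library and are given without a test.

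**Figure D4:**
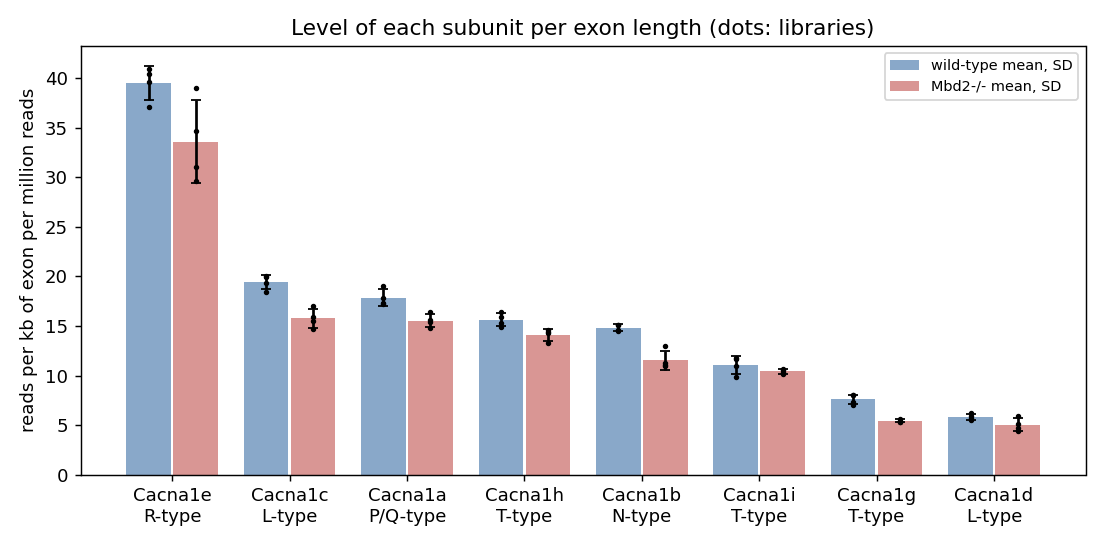
Level of each alpha-1 subunit in RPKM (bars, mean with SD; points, the 4 libraries of each genotype), ordered by the wild-type mean. Cacna1e stands at 39.5 RPKM in wild-type libraries and Cacna1d, the lowest, at 5.82 RPKM, and the order of the means is the same in both genotypes.

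Of the other pore-forming genes, Cacna1f and Cacna1s were near the minimum for testing. Cacna1f, the L-type pore of photoreceptors, had a mean normalized count of 8.20 ± 4.87 in wild-type and 8.12 ± 4.10 in Mbd2-/- libraries and was below the minimum for testing. Cacna1s, the L-type pore of skeletal muscle, had 10.4 ± 6.73 and 12.9 ± 4.38 and was not called (log2 fold change 0.45, adjusted p = 0.462 by limma). Nalcn, a related sodium leak channel that is not gated by voltage in the same way, had 1809.8 ± 53.7 and 1708 ± 87.9 (log2 fold change -0.08, adjusted p = 0.272 by limma; n = 4 each).

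The alpha-2-delta and beta subunits help determine how many L-, N-, P/Q- and R-type pores reach the membrane. Of the 15 auxiliary alpha-2-delta, beta and gamma genes tested (of 16 listed), 4 were called lower, against 10.0% of all genes tested, and none higher, with a median log2 fold change of -0.12. Cacna2d2, an alpha-2-delta subunit, had normalized counts of 424, 499, 502 and 482 in wild-type libraries 1 to 4 and 332, 375, 325 and 316 in Mbd2-/- libraries 1 to 4. The groups did not overlap (log2 fold change -0.50, SE 0.08, adjusted p = 0.000444 by limma). The beta subunits Cacnb1 and Cacnb2, which carry L-, N-, P/Q- and R-type pores to the membrane, had log2 fold changes of -0.20 (adjusted p = 0.0292 by limma) and -0.24 (adjusted p = 0.0121 by limma). Cacng5, whose product acts mainly on AMPA receptors, was lower by a log2 fold change of -0.41 (adjusted p = 0.00167 by limma). The 3 auxiliary genes with the highest mean count, Cacna2d1 (log2 fold change -0.11), Cacnb3 (0.12) and Cacnb4 (-0.11), were not called. By limma 1 auxiliary gene was higher at an unadjusted p under 0.05, and edgeR, DESeq2 and voom called 0 higher. After removal of the length trend all 4 calls were kept and Cacng8 was called lower as well, against 6.77% of all genes in that fit. Cacng8, with an annotated transcript of only 663 bases, was not called as deposited (log2 fold change -0.12, adjusted p = 0.163 by limma). Its log2 fold change was -0.44 once the trend was removed.

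The proteins that hold channels at the release site or respond to their calcium gave 7 genes called lower and none higher of 20 tested, against 10.0% and 12.0% of all genes tested, with a median log2 fold change of -0.12. Among those with the smallest p-values were Rims3, a RIM protein of the active zone, Unc13a, which primes vesicles, and Syt1, the calcium sensor of release. Rims3 fell from a normalized count of 293 ± 28.3 to 216 ± 7.88 (n = 4 each; log2 fold change -0.44, adjusted p = 0.00164 by limma). The log2 fold changes of Unc13a and Syt1 were -0.22 and -0.24. Cplx2, Snap25 and Bsn, the most abundant of the list, were not called, with log2 fold changes of 0.04, 0.02 and -0.14. By limma 1 gene of the list was higher at an unadjusted p under 0.05, and edgeR, DESeq2 and voom called 0 higher. With the length trend removed, the median was -0.01, 5 genes were called lower, and Rims1 and Unc13c were called higher, a share of the 20 near the 8.05% of all genes in that fit. Unc13a was then not called (log2 fold change -0.10, adjusted p = 0.198 by limma).

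The pumps, exchangers and store channels that move calcium after it has entered had the largest share called lower of the 4 lists around the channel. Of 18 tested, 13 were called lower, against 10.0% of all genes tested, and none higher, with a median log2 fold change of -0.27. Atp2b4, a calcium pump of the plasma membrane, had normalized counts of 1701, 1666, 1649 and 1659.8 in wild-type libraries 1 to 4 and 1226, 1225, 1162 and 1271 in Mbd2-/- libraries 1 to 4. The groups were far apart (log2 fold change -0.45, adjusted p = 3.46e-05 by limma). Atp2a2, the pump of the endoplasmic reticulum, and the exchangers Slc24a2 and Slc24a3 had log2 fold changes of -0.33, -0.35 and -0.26. Of the 3 most abundant genes, Atp2a2 and Atp2b1 (log2 fold change -0.31) were called lower, and the store channel Itpr1 was not (0.11, adjusted p = 0.124 by limma). Itpr1 was the 1 gene of the list that was higher at an unadjusted p under 0.05, and edgeR, DESeq2 and voom called 0 higher and 12 lower. With the length trend removed, 7 genes of the list were called lower, against 6.77% of all genes in that fit. Itpr1 was then called higher, at a log2 fold change of 0.25, and 1 gene of 18 is a share below the 8.05% of all genes called higher.

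Modulators of the channel had calls in both directions. Of 18 tested (of 20 listed), 4 were called higher, against 12.0% of all genes tested, and 2 lower, a share near the 10.0% of all genes tested, with a median log2 fold change of 0.10. The median turned to -0.01 with the length trend removed. Gng7, a G protein gamma subunit, rose from a normalized count of 3150.2 ± 114 to 4057 ± 134 (n = 4 each; log2 fold change 0.36, adjusted p = 0.000153 by limma). Stac2, an adaptor of L-type channels, and Akap7, a kinase anchor, each had a log2 fold change of 0.25. Gng4 and the anchor Akap5 were called lower, at -0.25 and -0.23. The groups of Gng4 overlapped (exact permutation p = 0.0571). Those of Akap5 overlapped as well (exact permutation p = 0.143), and it was not called with the length trend removed (adjusted p = 0.199 by limma). Calm2 and Calm3, calmodulin genes among the most abundant of the list, were not called (log2 fold changes 0.15 and 0.05).

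**Figure D5:**
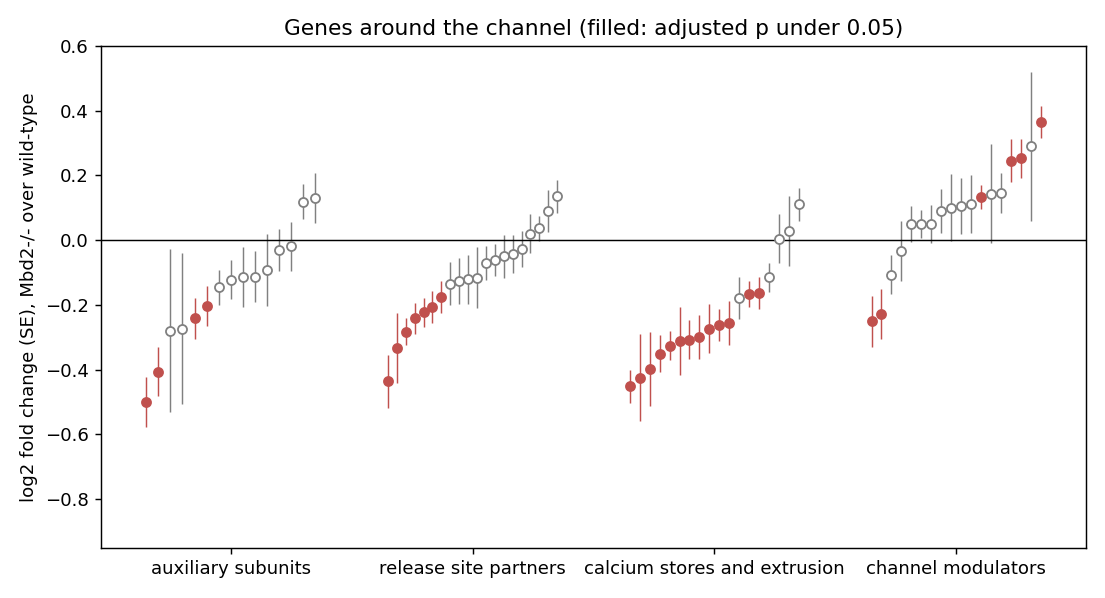
Log2 fold change with SE of the tested genes of 4 lists around the channel (auxiliary subunits, release site partners, calcium stores and extrusion, channel modulators), ordered by fold change within each list; filled red points passed an adjusted p of 0.05. Calls in the first 3 lists are all below 0, and the modulators have calls on both sides; with the length trend removed, Itpr1, Rims1 and Unc13c were called higher.

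Markers of other regions and cell types are read against the 10.0% of all tested genes called lower and the 12.0% called higher. Cacna1g is a known transcript of thalamic relay neurons, and markers of the thalamus, a region outside the hippocampus, were lower in Mbd2-/- libraries in 14 of 18 cases, with none higher and a median of -0.54 for the log2 fold change. Their summed normalized count ran from 10242 to 10620.3 in wild-type and from 7669.8 to 8305 in Mbd2-/- libraries, and none was at 0. At an unadjusted p under 0.05 by limma 0 were higher, and edgeR, DESeq2 and voom called 15 or 16 lower and 0 higher. Slc17a6, a glutamate transporter of thalamic neurons, fell from 508 ± 22.5 to 321 ± 16.5 (n = 4 each; log2 fold change -0.66, adjusted p = 1.51e-05 by limma). The mean difference of the thalamic markers from wild-type was -0.63, -0.56, -0.56 and -0.56 on the log2 scale in Mbd2-/- libraries 1 to 4. Their part in the difference of Cacna1g was not tested.

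Of 9 general neuronal markers, 1 was called lower, a share near that of all genes tested, and none higher, a median of -0.07 on the log2 scale and summed normalized counts of 87734 to 92458 in wild-type and 84478 to 91920 in Mbd2-/- libraries. The CA1 list had 2 of 6 genes called lower, the CA3 list 1 of 6 called higher, and the dentate gyrus list 1 of 8 in each direction, with medians of -0.17, 0.12 and -0.02, and the counts for CA3 and the dentate gyrus stand for 1 gene each way and are not read as a difference. The interneuron list had 3 of 9 called lower and 4 called higher (median -0.21), and the striatum list 1 of 8 called lower and 2 called higher (median -0.14). Markers of non-neuronal cells were called higher in 6 of 8 cases each for astrocytes, oligodendrocytes and microglia, in 3 of 8 for endothelium and pericytes and in 12 of 12 for the choroid plexus, with medians of 0.28, 0.20, 0.30, 0.18 and 0.90. With the length trend removed, where 6.77% of all genes were called lower and 8.05% higher, the microglia list had 2 called higher, the astrocyte list 8, the oligodendrocyte list 5, the endothelium and pericyte list 4 and the choroid plexus list 12. In that fit the neuron list had 3 called lower and 1 higher, the interneuron list 3 and 1, the striatum list 1 and 1, and the thalamus list 15 lower and 0 higher, while the counts of the CA1, CA3 and dentate gyrus lists were as before. As deposited, counts in the direction with no call were also 0 by edgeR, DESeq2 and voom and at an unadjusted p under 0.05 by limma. No marker of these lists had a group mean of 0. The part of these values in the alpha-1 differences was not tested.

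The genes whose profile over the 8 libraries was most like that of each called member were listed by the root mean square (RMS) difference of log2 values around their own means. Cacna1g was nearest to Nup210 (RMS 0.0318) and Nfasc (0.0427), with log2 fold changes of -0.47 and -0.40. For Cacna1b they were Ice1 (0.0298) and D630045J12Rik (0.0320), and for Cacna1c Dzank1 was among the nearest (0.0325). The nearest to Cacna1a were Cit (0.0276) and Baz2a (0.0310), and those to Cacna1e were Heg1 (0.0259) and Syne1 (0.0310). No other alpha-1 subunit was among these genes.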

How the data were processed

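Hippocampal total RNA of 4 wild-type and 4 Mbd2-/- pools of 2 mice was sequenced. Per the paper's methods and the labels, the authors removed duplicated reads, aligned to mm9 with STAR and compared genotypes with DESeq2; the counting tool, its strand setting and tool versions are not given in the sources used here. The deposited signal is a normalized count, reads divided by the DESeq2 size factor of a library. Columns of the authors' own comparison (mean, fold change, error, statistic and p-values) were not used. Values were divided by the smallest value above 0 of their library (0.531 to 1.59), which gave whole reads for 100% of values to within 0.01. The reads carry no molecular identifiers and are not independent, so depth speaks to counting error only, and the spread between libraries was larger.

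Genes were fitted with limma 3.58.1 on log2(normalized count + 1) with trend and robust moderation, for genes with a mean of at least 10, with Benjamini-Hochberg adjustment over 14504 genes and calls under 0.05. Fold changes are on that scale, which understates those of low genes. This log-scale test stands in for the DESeq2 test of the study because the files hold normalized counts. For single genes, exact permutation p-values (two-sided, over libraries) are given too. RPKM used recovered reads and the union of exons of GENCODE vM1, matched for 16812 symbols directly and 1290 by a synonym. The length trend was removed per library by lowess (span 0.3). Alternatives were edgeR 4.0.16, DESeq2 1.42.0 and voom on recovered reads, other scalings, filters and pseudocounts, the replicate number as a block, and each library left out in turn. The limma fit was tested on simulated data. All members are named, with Cacna1f, Cacna1s, Nalcn and Mbd2; of each list around the channel, every called gene is named, or the 4 with the smallest p where more than 6 were called, and the 3 with the highest mean, except some genes that are not reported here; Cacng8, Rims1 and Unc13c were named after their values were seen. The members and all gene lists were chosen with earlier results of these data known. Pairs of libraries within a genotype had a chi-square per gene of 2.05 to 16.7, so none repeats another.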

Additional observations from a re-analysis of the deposited data

How the results depend on the processing

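Cacna1b, Cacna1c and Cacna1g were called lower in all 12 alternatives that kept every library and in all 8 that left out 1. Cacna1a and Cacna1e were called in 10 of those 12, and not without trend and robust moderation or with the length trend removed, where the number of members called lower was 3. With the length trend removed Cacna1i reversed to 0.071, stores and extrusion had 7 called lower and 1 higher, and release site partners had 2 called higher (Rims1 and Unc13c). Without trend and robust moderation, stores and extrusion had 8 called lower and modulators 0. Modulators called lower numbered 1 with edgeR, DESeq2, no filter on low values, or the length trend removed. With 1 library left out, members called lower ranged from 3 to 7 and higher from 0 to 0, auxiliary subunits lower from 3 to 6 and higher from 0 to 2, release site partners lower from 5 to 9 and higher from 0 to 1, stores and extrusion lower from 8 to 15 and higher from 0 to 0, and modulators lower from 0 to 3 and higher from 2 to 7; the highest count of members and of stores came without the fourth Mbd2-/- library. In those left-out fits the share of all tested genes called lower ran from 5.99% to 17.7%. The number called higher ran from 1170 to 2598, the latter of 14490 genes without the fourth Mbd2-/- library. The 2 auxiliary genes called higher came from that last fit. The calls over all genes were 3185, against 2177 without trend and robust moderation (6.45% lower) and 2103 with the length trend removed (6.77% lower). With 1 library left out they ran from 2073 without wild-type library 3 to 5156 without the fourth Mbd2-/- library. Same-numbered libraries of the genotypes correlated at -0.19, -0.10, 0.20 and 0.08 over 12060 genes, and only numbers 3 and 4 had their own number as best partner, so the numbers were not taken as pairs; with the number as a replicate block the members called lower were 5, with 3192 calls over all genes. The causes of these changes were not tested. At this depth Cacna1f lay below the minimum for testing.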
